A study of Mus musculus with 9 samples.

Results

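The 10 let-7 passenger strands examined here are the 3p strands of the mouse let-7 hairpins that the series lists as mmu-let-7a-1-3p, mmu-let-7b-3p, mmu-let-7c-1-3p, mmu-let-7c-2-3p, mmu-let-7d-3p, mmu-let-7e-3p, mmu-let-7f-1-3p, mmu-let-7f-2-3p, mmu-let-7g-3p and mmu-let-7i-3p, written below without the species prefix. They were taken by name, not by a threshold on their values, from 1101 mature miRNAs listed in at least 1 library. The libraries are small RNA of exosomes, the vesicles that cells release into their medium, here from RAW264.7, an established mouse macrophage line grown in medium with fetal bovine serum. The 3 groups of 3 libraries each came from untreated cells, from cells with silica for 24 h and from cells with silica for 48 h. Silica is the mineral dust behind silicosis, and neither its dose nor how long the untreated cells were cultured is stated in the labels. All groups share 1 cell line and carry no genetic change, and although the 3 repetitions per group are described as independent, separate cultures are not mentioned, so the p-values measure the spread between these libraries.

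A miRNA hairpin is cut into a short duplex of 2 strands. One strand, the guide, is usually loaded into an Argonaute protein and pairs with target mRNAs through its seed, while the other, the passenger or star strand, is usually degraded. In let-7, a family known for restraining proliferation genes and for its rise during differentiation, the guide is the 5p strand and the 3p strand is the passenger. Because both strands come from 1 hairpin, the share of 3p reads among the reads of both strands can follow strand selection and strand stability. It cannot separate these from each other or from any other step between the hairpin and the counted read.

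The mature sequences are shown because they decide which of the 10 names can be told apart. All 10 names matched RefSeq's mouse miRNAs (build GRCm38.p6), and each strand is written 5′ to 3′ with its seed, bases 2 to 8 counted from 1 at the 5′ end, in capitals.
let-7a-1-3p: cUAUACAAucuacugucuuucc
let-7c-2-3p: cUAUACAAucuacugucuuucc
let-7b-3p: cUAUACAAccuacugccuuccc
let-7f-1-3p: cUAUACAAucuauugccuuccc
let-7f-2-3p: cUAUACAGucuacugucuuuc
let-7d-3p: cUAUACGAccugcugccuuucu
let-7e-3p: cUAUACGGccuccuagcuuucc
let-7c-1-3p: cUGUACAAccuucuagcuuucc
let-7i-3p: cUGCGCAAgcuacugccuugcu
let-7g-3p: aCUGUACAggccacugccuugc
The passenger strands carried 7 different seeds, whereas the 8 let-7 guides have 1 seed, GAGGUAG, in common. The seed UAUACAA was shared by let-7a-1-3p, let-7b-3p, let-7c-2-3p and let-7f-1-3p, and among RefSeq's mouse miRNAs also by miR-98-3p. These 4 strands together held 24.7% of the passenger reads. let-7d-3p alone, whose seed no other of RefSeq's mouse miRNAs had, held more over all libraries, with 36384 reads against 15412. In the untreated libraries the 4 strands held more, with 5589 reads against 4658, and they exceeded let-7d-3p in 4 of 9 libraries (untreated 1 and 2, 48 h 1 and 2).

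let-7a-1-3p and let-7c-2-3p have the same sequence over all 22 bases, although their hairpins lie on different chromosomes. A read of this sequence therefore cannot be assigned to either hairpin by its letters, and the rule by which such reads were assigned is not stated in the labels or headers. let-7f-2-3p, with 21 bases, differed from the pair by 1 substitution in the seed (A8G, the pair's base first), and let-7b-3p differed from let-7f-1-3p by 2 (C9U and C13U, let-7b-3p's base first), outside the seed. A count for one of these near neighbours can take in reads of the other wherever mismatches were tolerated, and the number tolerated is likewise not stated.

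On mm10, which is GRCm38, let-7a-1, let-7f-1 and let-7d lie within 2261 bases on the minus strand of chromosome 13, in exons of the lincRNA 6720427I07Rik, with the mature let-7a-1-3p at chr13:48538188-48538209, let-7f-1-3p at chr13:48537833-48537854 and let-7d-3p at chr13:48536024-48536045. let-7c-2 and let-7b lie within 801 bases on the plus strand of chromosome 15, in exons of the noncoding transcript Lncppara, with let-7c-2-3p at chr15:85706664-85706685 and let-7b-3p at chr15:85707379-85707400. let-7c-1-3p (chr16:77599717-77599738, plus strand) is in an intron of the noncoding Mir99ahg, and let-7e-3p (chr17:17830411-17830432, plus strand) is in an intron of Spaca6. let-7f-2-3p (chrX:151912403-151912423, plus strand) is in an intron of Huwe1, as is the related Mir98, and let-7g-3p (chr9:106178902-106178923, plus strand) is in an intron of Wdr82. let-7i-3p (chr10:122985642-122985663, minus strand) lies in an exon of D630033A02Rik, a transcribed pseudogene.

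Mature miRNAs had 2158418 to 8331451 counted reads per library, which was 28.0% to 44.7% of all counted small RNA. Levels are given as CPM, mature miRNA counts scaled by TMM to a common library size, and 3 counts in a library equal 0.360 to 1.39 CPM, a limit that covers counting error only. The 24 h library 3 was the shallowest. All 6 macrophage and myeloid marker miRNAs were listed and summed to 70806 to 107350 CPM per library, against 8154.8 to 43070 CPM for the 5 serum and red cell markers, 61.2 to 185 CPM for the 6 epithelial markers and 34.3 to 1542 CPM for the 4 mesenchymal markers. The mesenchymal sums include miR-199a-3p, at 9.68 to 1526 CPM, which has the same sequence as miR-199b-3p. Reads of that sequence went mostly to one or the other name in each library, so these sums also follow read assignment. No marker was at 0 in all 9 libraries, and their part in the results below was not tested.

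The 10 passenger strands held 62359 reads in all, 3155 to 10184 per library. They made up 0.0976% ± 0.0495 of mature miRNA reads in the untreated libraries, 0.251% ± 0.138 at 24 h and 0.143% ± 0.0805 at 48 h (SD, n = 3). The passenger share was also taken of these reads plus those of the 8 let-7 guides, without let-7j and let-7k. It was 0.554% ± 0.242, 1.04% ± 0.634 and 0.737% ± 0.425 in the same order. Both shares pool strands that differed, since let-7d-3p held 31.4% of the passenger reads untreated and 79.96% at 24 h. Of the 9 tested strands, 4 had a log2 fold change above 0 at 24 h and 5 below. Of the 10 strands, 8 were listed in all 9 libraries, let-7b-3p in 8 and let-7g-3p in 4. Counts of 9 strands were high enough to be tested, and let-7g-3p was not.

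mmu-let-7d-3p was the most abundant name with 58.3% of all passenger reads. It held 31.4% ± 5.86 of the passenger reads of the untreated libraries, 79.96% ± 13.1 at 24 h and 46.5% ± 24.2 at 48 h (SD, n = 3). Next came mmu-let-7a-1-3p with 13.1%, mmu-let-7c-2-3p with 10.4%, let-7f-2-3p with 8.48%, let-7i-3p with 5.43% and let-7e-3p with 2.33%. The remaining strands, let-7f-1-3p, let-7c-1-3p, let-7b-3p and let-7g-3p, held 1.06%, 0.633%, 0.218% and 0.0577%.

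**Figure D1:**
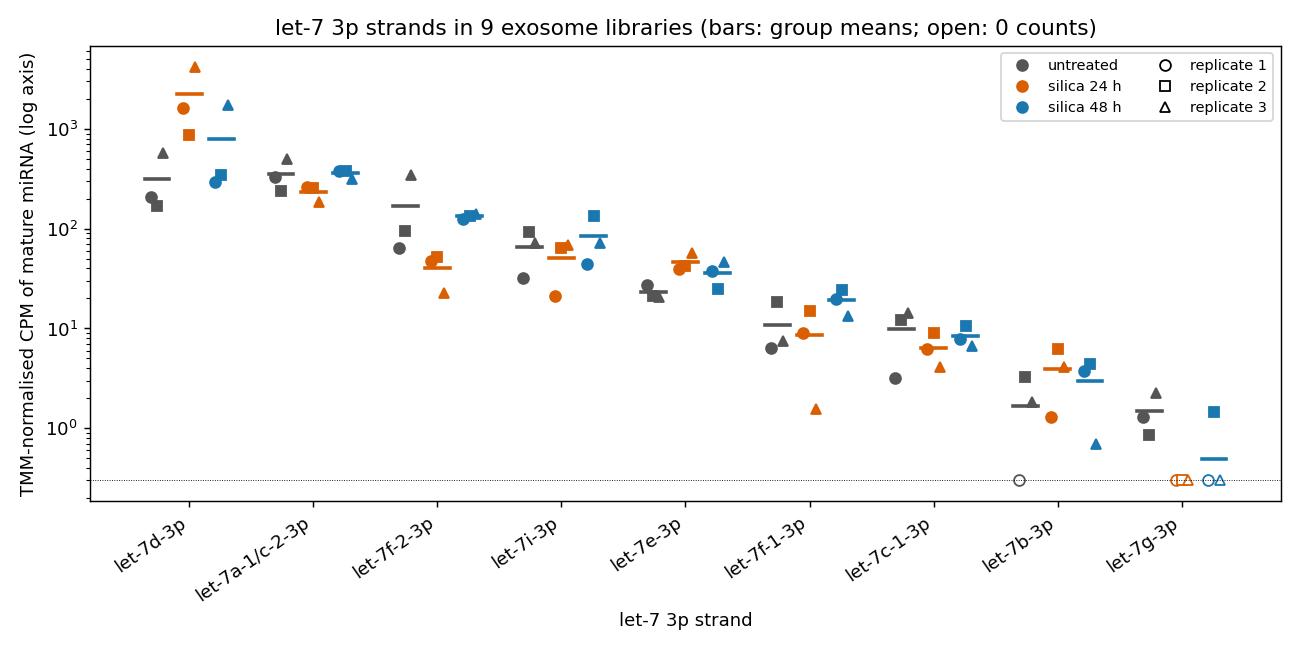
Level of each let-7 3p strand in every library, in TMM-normalised CPM on a log axis, coloured by group with lines for group means, with the identical let-7a-1-3p and let-7c-2-3p summed and 0 counts drawn as open marks on the dotted line. let-7d-3p lies above the untreated libraries in all 24 h libraries (880 to 4228 CPM), let-7f-2-3p is lowest at 24 h, and let-7g-3p is at 0 in all 24 h libraries.

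The 2 names of the identical sequence traded places between libraries. let-7a-1-3p had 90, 1388 and 6 counts in untreated libraries 1, 2 and 3, then 109, 1533 and 339 at 24 h and 41, 3361 and 1279 at 48 h. let-7c-2-3p had 1682, 8 and 2212 counts in the untreated libraries, 898, 13 and 17 at 24 h and 1262, 278 and 98 at 48 h. The first name was the larger in 5 libraries and the second in 4, and the larger name always held 89.2% to 99.7% of the pair's reads. In untreated library 3, let-7a-1-3p took 0.271% of the pair (95% Wilson interval 0.124% to 0.589%), and in untreated library 2 it took 99.4% (98.9% to 99.7%), so the gap was far beyond counting error.

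Summed, the pair varied little between libraries. The sum was 329.9, 238 and 504 CPM in the untreated libraries, 260, 256 and 184.5 CPM at 24 h and 376, 381 and 317 CPM at 48 h. Its highest value was 2.73 times its lowest, close to the 2.76 times of let-7e-3p and far below the 258.5 times of let-7a-1-3p alone and 367.7 times of let-7c-2-3p alone. All 3 libraries numbered 1 were mostly let-7c-2-3p and all 3 numbered 2 were mostly let-7a-1-3p, while the libraries numbered 3 were split between names. Identical partners were sought only among listed names that RefSeq's mouse miRNAs also hold, so others can have been missed. The only other pair found with at least 100 reads in all was miR-199a-3p and miR-199b-3p. It showed the same kind of division, with 90.1% to 98.9% of its reads under 1 name in every library.

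**Figure D2:**
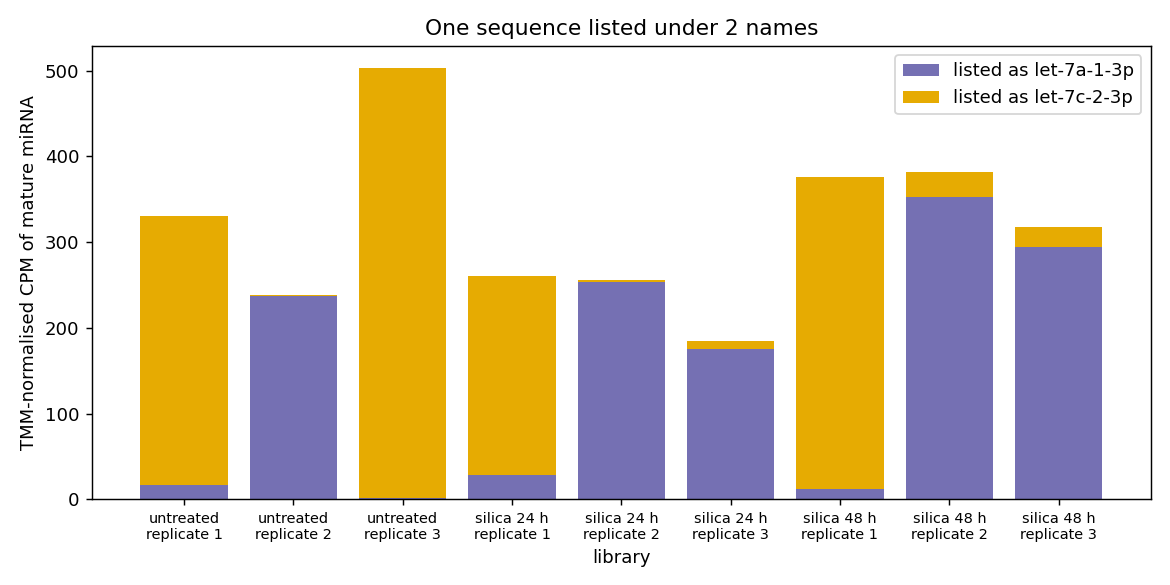
Stacked bars of the TMM-normalised CPM listed under let-7a-1-3p (purple) and let-7c-2-3p (yellow), which are 1 sequence, for each of the 9 libraries, so that the bar height is their sum. One name holds at least 89.2% of the pair in every library, whereas the sum varies over only 2.73-fold.

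Ordered by mean level over the 9 libraries with the identical pair summed, let-7d-3p came first (1121 ± 1308 CPM, SD, n = 9), followed by the pair (316 ± 95.7 CPM), let-7f-2-3p (114 ± 95.6 CPM), let-7i-3p (66.9 ± 34.1 CPM) and let-7e-3p (35.3 ± 12.6 CPM). let-7f-1-3p (12.8 ± 7.33 CPM), let-7c-1-3p (8.24 ± 3.68 CPM), let-7b-3p (2.85 ± 2.04 CPM) and let-7g-3p (0.655 ± 0.857 CPM) were low. All are 21 to 22 bases long, so no length correction was made, and how evenly the different sequences were captured was not measured. In pooled vesicle RNA, fewer cells or vesicles of a kind and less RNA in each cannot be told apart. The first places depended on the group: let-7d-3p exceeded the pair in 3 of 3 libraries at 24 h but in 1 of 3 untreated and 1 of 3 at 48 h, and in the untreated libraries the pair's mean was the higher (357 against 319 CPM). let-7d-3p exceeded the pair in 5 of 9 libraries and let-7f-2-3p exceeded let-7i-3p in 6 of 9. Neither order held in every library, and these differences were not tested. The pair exceeded let-7f-2-3p, and let-7e-3p exceeded let-7f-1-3p, in 9 of 9.

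The first comparison asks which passenger strands differ in exosomes after 24 h of silica. let-7d-3p and let-7e-3p were higher in all 3 libraries at 24 h than in any untreated library, and let-7f-2-3p was lower in all 3. let-7g-3p had 0 counts in all 3 libraries at 24 h, but its untreated values (0.854 to 2.27 CPM) lay near the detection limit. In 24 h library 3, 3 counts equal 1.39 CPM. None of the 9 tested strands passed edgeR's quasi-likelihood test at an adjusted p under 0.05, which called 0% of all 453 tested miRNAs. At an unadjusted p under 0.05, 2 strands stood out (let-7d-3p and let-7f-2-3p), where 10.2% of all tested miRNAs did, and DESeq2 called 0 of the 9 and 4 of the 453. The groups did not overlap upward for 2 of 9 strands, where 10.4% of all tested miRNAs did so, and downward for 1 of 9, where 6.18% did. These 3 strands are too few to set a share against that background. Over the 9 strands the log2 fold change was above 0 for 4 and below 0 for 5, with a median of -0.32 beside -0.07 for all tested miRNAs, of which 46.6% were above 0.

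let-7d-3p is cut from the last hairpin of the chromosome 13 cluster. It had 206, 169 and 582 CPM in the untreated libraries, 1635.5, 880 and 4228 CPM at 24 h and 296, 348 and 1747 CPM at 48 h. All 24 h libraries lay above all untreated libraries, and 48 h library 3 lay with the 24 h libraries while 48 h libraries 1 and 2 lay within the untreated range. The means were 319 ± 228, 2248 ± 1756 and 797 ± 823 CPM (SD, n = 3). At 24 h the log2 fold change against untreated was 2.82 ± 0.89 (SE; edgeR adjusted p = 0.386).

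With the replicate number as a block, edgeR gave let-7d-3p a log2 fold change of 2.76 ± 0.47 at 24 h and called it (adjusted p = 0.0269), 1 of 3 called among 453 miRNAs (0.662%). This call rests on a pairing that the labels do not state and that was inferred from these same counts. It was also called without the filter on low counts (2.72, adjusted p = 0.00558), and not by DESeq2 (2.79, adjusted p = 0.0746). The log2 fold change was 1.99 without 24 h library 3 and 3.48 without untreated library 3, and over all alternatives the adjusted p ran from 0.00558 to 0.900. The serum and red cell markers summed to 10113 to 33163 CPM in the untreated and 11571 to 15217 CPM in the 24 h libraries, with all 5 listed, and the macrophage markers to 75494 to 105030 and 70806 to 82837 CPM. Those serum sums were mostly miR-16-5p (mean 17256 ± 13458 CPM untreated, 9189 ± 552 at 24 h, SD, n = 3) and hid other members. Likewise, the macrophage sums were mostly miR-146a-5p (means 53770 untreated and 45483 CPM at 24 h) and miR-21a-5p (39605 and 28770 CPM). Of the 6 macrophage markers 1 lay above 0 at 24 h (miR-223-3p, 0.63) and 5 below, with a median log2 fold change of -0.35.

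miR-451a, a red cell miRNA, had 148 to 630 CPM in the untreated and 872 to 3380 CPM in the 24 h libraries, with groups apart, and miR-122-5p, a liver miRNA found in serum, 255 to 1295 and 1252 to 2257 CPM. Of the 5 serum and red cell markers 3 lay above 0 and 2 below (miR-486a-5p at -0.13 and miR-16-5p at -0.91). Their median log2 fold change of 0.94 was the value of miR-486b-5p (0.94 ± 1.14, SE). That miRNA was low, at 0.518 to 17.8 CPM over the 9 libraries. The mesenchymal miR-143-3p had 6.32 to 24.6 CPM untreated and 51.4 to 96.9 CPM at 24 h, and miR-145a-5p was at 0 in all untreated libraries and at 0.331 to 2.84 CPM at 24 h. Over 3 tested mesenchymal markers the median was 1.65, with sums of 34.3 to 1542 CPM untreated and 133 to 654 CPM at 24 h. Both the median and the sums include miR-199a-3p (log2 fold change -1.10), whose reads were divided with the identical miR-199b-3p. All 5 tested epithelial markers lay below 0, with sums of 100.5 to 173 and 61.2 to 119 CPM. edgeR called none of the tested markers, and their part in the let-7d-3p, let-7e-3p and let-7f-2-3p values was not tested. The highest let-7d-3p level was in the library with the fewest mature reads, and the part of depth in the result was not tested.

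The guide of the same hairpin had 8156, 7276 and 6622 CPM of let-7d-5p in the untreated libraries, 4413, 10094 and 5813 CPM at 24 h and 11775, 7393 and 6922 CPM at 48 h. The groups overlapped for this guide (log2 fold change at 24 h -0.12 ± 0.43, edgeR adjusted p = 0.924). As a share of both strands, let-7d-3p made up 2.46%, 2.27% and 8.07% in the untreated libraries, 27.0%, 8.02% and 42.1% at 24 h and 2.45%, 4.49% and 20.2% at 48 h. These groups overlapped narrowly, since 24 h library 2 lay just under untreated library 3. The log2 ratio of the strands was 2.94 ± 1.13 higher at 24 h (SE, limma adjusted p = 0.397 over 127 strand pairs). The hairpin is shown because both products can be read in it, the guide first and the passenger last, each in capitals (chr13:48536012-48536114, minus strand).
let-7d hairpin: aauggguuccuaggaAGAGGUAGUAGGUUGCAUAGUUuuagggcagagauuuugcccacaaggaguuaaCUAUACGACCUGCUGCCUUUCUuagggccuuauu

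**Figure D3:**
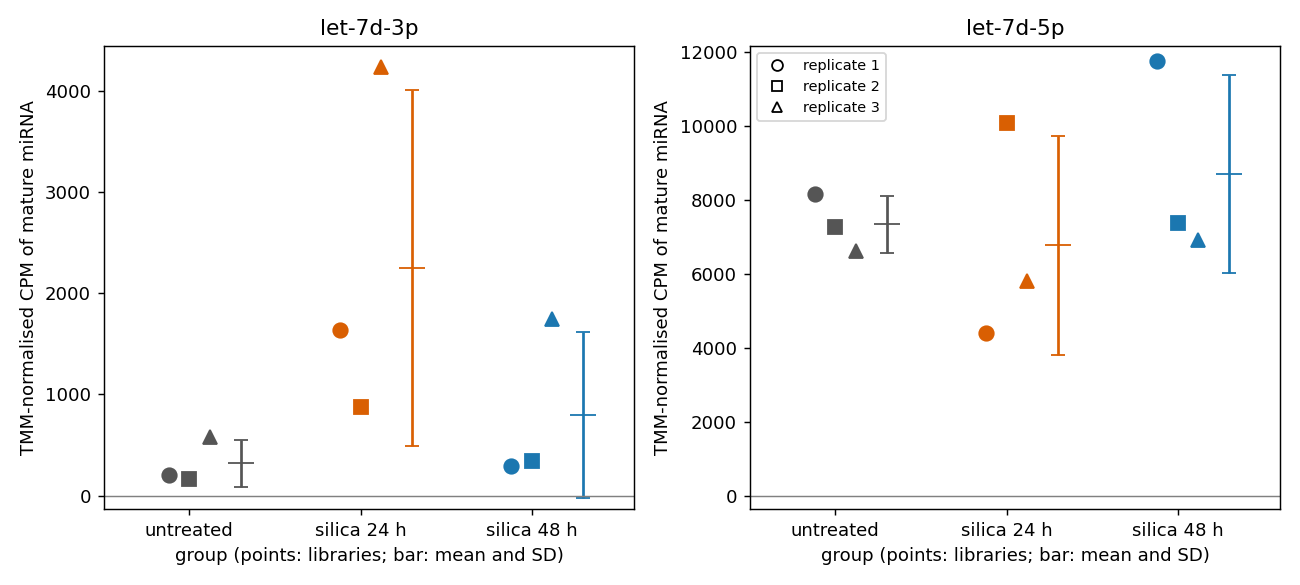
Level of let-7d-3p and of its guide let-7d-5p in each library, in TMM-normalised CPM on linear axes, with points for libraries, short horizontal lines for the group mean and whiskers for the SD (n = 3). let-7d-3p is higher in all 3 libraries at 24 h than in any untreated library, while the let-7d-5p groups overlap, and the 48 h whisker of let-7d-3p runs below 0 because its SD of 823 exceeds its mean of 797.

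let-7e-3p, from the hairpin beside miR-99b and miR-125a, was the other strand that was higher throughout at 24 h. It had 27.4, 21.2 and 20.7 CPM in the untreated libraries, 39.8, 42.6 and 57.0 CPM at 24 h and 37.8, 24.8 and 46.5 CPM at 48 h. Its untreated values were close together, and the 48 h values reached from within the untreated to within the 24 h range. The means were 23.1 ± 3.73, 46.5 ± 9.24 and 36.4 ± 10.9 CPM (SD, n = 3), and the log2 fold change at 24 h was 1.01 ± 0.51 (SE, edgeR adjusted p = 0.543).

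The share of let-7e-3p was second only to that of let-7d-3p when averaged over the 9 libraries. It made up 3.80%, 4.76% and 3.22% of both let-7e strands in the untreated libraries, 13.3%, 5.67% and 7.81% at 24 h and 4.12%, 4.29% and 6.29% at 48 h. let-7e-3p was the 1 strand of 9 whose share was higher in all 24 h than in all untreated libraries, where 9.45% of the 127 strand pairs were so, and 0 of 9 were lower throughout, where 7.87% of pairs were. Its log2 ratio to the guide was 1.19 ± 0.63 higher (SE, limma adjusted p = 0.539). The 9 hold let-7a-1-3p and let-7c-2-3p as separate names, and their summed share was lower in all 24 h than in all untreated libraries. At 24 h limma called 0 of 9 strand ratios and 0% of 127 pairs, and at an unadjusted p under 0.05 it gave 1 of 9 (let-7d-3p) beside 11% of pairs. Of the 9 ratios 4 lay above 0, beside 50.4% of pairs.

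let-7f-2-3p, from the X-linked Huwe1 intron, went the other way. It had 64.6, 94.4 and 343 CPM in the untreated libraries, 47.8, 51.7 and 22.8 CPM at 24 h and 125, 135 and 142 CPM at 48 h. All 24 h libraries lay below all others, the 48 h libraries were close together, and untreated library 3 stood far above the other 2 untreated libraries. The means were 167 ± 153, 40.8 ± 15.7 and 134 ± 8.20 CPM (SD, n = 3), and the log2 fold change at 24 h was -2.03 ± 0.70 (SE, edgeR adjusted p = 0.409), or -1.03 without untreated library 3. Its share of both let-7f strands was 1.05%, 1.63% and 5.13% in the untreated libraries, 1.70%, 0.498% and 0.455% at 24 h and 1.01%, 1.68% and 2.55% at 48 h, and these overlapped. The guide let-7f-5p comes from both let-7f hairpins, so this share sets 1 passenger against a guide of 2 sources.

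let-7g-3p, from the Wdr82 intron, was at the edge of detection. It had 7, 5 and 10 counts in the untreated libraries, 0 in every 24 h library and 0, 14 and 0 counts at 48 h. Summed by group, 22 counts in untreated stood against 0 at 24 h. With 3 counts over the group taken as the limit that 0 allows, this was 5.56-fold lower per mature read. That limit covers the counting error of the 0 only, not that of the 22 counts, and the strand was not tested.

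The identical pair, summed, had means of 357 ± 135, 234 ± 42.6 and 358 ± 35.7 CPM in untreated, 24 h and 48 h libraries (SD, n = 3). Its log2 fold change at 24 h was -0.61 ± 0.50 (SE, edgeR adjusted p = 0.674), in a fit added after the data were seen. Taken apart, the 2 names gave 0.84 ± 1.45 for let-7a-1-3p (adjusted p = 0.874) and -1.75 ± 1.78 for let-7c-2-3p (adjusted p = 0.729), opposite in sign for 1 sequence. Both values hung on single libraries: let-7a-1-3p was at 4.10 without untreated library 2, at 0.21 without untreated library 1, at 0.17 without untreated library 3 and at 0.16 without 24 h library 2. let-7c-2-3p was at -5.75 without 24 h library 1, at -1.14 without 24 h library 2 and at -0.98 without untreated library 3. Against let-7a-5p and let-7c-5p summed, the pair made up 0.2999%, 0.436% and 0.531% in the untreated libraries, 0.169%, 0.189% and 0.112% at 24 h and 0.223%, 0.586% and 0.280% at 48 h. All 24 h shares lay below all others, with a log2 change against untreated of -1.43 ± 0.65 (SE, limma adjusted p = 0.420).

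The other 4 strands had overlapping groups in this comparison. let-7i-3p averaged 65.2 ± 30.8, 51.2 ± 26.3 and 84.2 ± 46.7 CPM in untreated, 24 h and 48 h libraries (SD, n = 3), and let-7f-1-3p, the middle hairpin of the chromosome 13 cluster, 10.8 ± 6.78, 8.50 ± 6.70 and 19.2 ± 5.46 CPM. let-7c-1-3p averaged 9.92 ± 5.94, 6.43 ± 2.41 and 8.35 ± 2.01 CPM, and let-7b-3p 1.69 ± 1.63, 3.91 ± 2.51 and 2.95 ± 1.98 CPM from at most 42 counts in a library. Their log2 fold changes at 24 h were -0.35, -0.32, -0.61 and 1.20, with edgeR adjusted p from 0.768 to 0.904. From the same lincRNA, let-7d-3p was at 2.82 and let-7f-1-3p at -0.32 ± 0.80, but the latter was 0.37 without untreated library 2, and the difference between them was not tested.

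**Figure D4:**
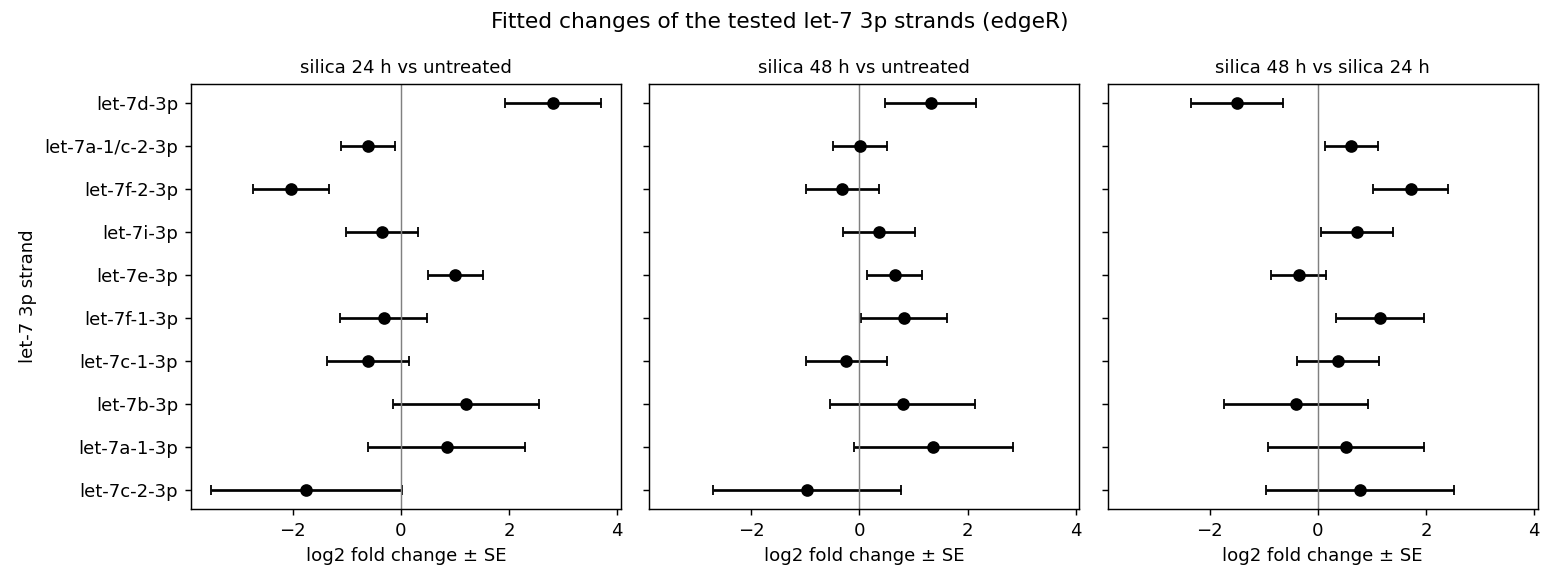
log2 fold change of each tested let-7 3p strand and of the summed identical pair (let-7a-1/c-2-3p) in the 3 comparisons, with whiskers of 1 SE from edgeR. let-7d-3p at 24 h is farthest above 0 (2.82) and let-7f-2-3p at 24 h farthest below (-2.03), and the whiskers of let-7a-1-3p and let-7c-2-3p are the widest.

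The second comparison asks which strands differed from untreated after 48 h of silica. It shares the untreated libraries with the first. None of the 9 strands was called by edgeR (0% of 453 called), by DESeq2 (1 of 453 called, no strand) or at an unadjusted p under 0.05 (0.883% of 453), and no strand had groups apart, where 2.21% of miRNAs were higher and 1.55% lower throughout. The log2 fold change was above 0 for 6 strands and below 0 for 3, with a median of 0.66 beside 0.03 for all tested miRNAs, of which 52.5% were above 0. let-7d-3p had the value 1.32 ± 0.84 (SE, edgeR adjusted p = 0.997), which rested on 48 h library 3, since without that library it was -0.01. let-7e-3p was at 0.66 ± 0.51, let-7f-1-3p at 0.82 ± 0.80, let-7i-3p at 0.37 ± 0.67 and let-7f-2-3p at -0.32 ± 0.67, all with an edgeR adjusted p of 0.997. The summed pair was at 0.01 ± 0.49.

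In strand ratios at 48 h, limma called 0 of 9 strands and 0% of 127 pairs, and at an unadjusted p under 0.05 it gave 0 of 9 strands beside 1.57% of pairs. Of the 9 ratios 6 lay above 0, beside 56.7% of pairs. let-7d-3p was at 0.84 ± 1.13 (limma adjusted p = 0.998), or -0.11 without 48 h library 3, and let-7e-3p at 0.32 ± 0.63. No strand's shares were apart, where 2.36% of pairs were higher and 3.15% lower throughout.

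The third comparison sets 48 h against 24 h of silica, and shares its libraries with the other two. edgeR called 0 of 9 strands and 0% of 453 miRNAs. At an unadjusted p under 0.05, 1 strand (let-7f-2-3p) stood beside 9.71% of all miRNAs, and DESeq2 called 0 of 9 strands and 6 of 453 miRNAs. let-7f-2-3p was higher in all 48 h libraries, with a log2 fold change of 1.71 ± 0.69 (SE, edgeR adjusted p = 0.438), and 10.4% of all tested miRNAs were higher throughout. No strand was lower throughout, where 10.4% of miRNAs were. Over the 9 strands 6 values lay above 0 and 3 below, with a median of 0.52 beside 0.14 for all tested miRNAs, of which 54.1% were above 0. The summed pair was also higher in all 3 libraries at 48 h (0.62 ± 0.50, edgeR adjusted p = 0.613). let-7d-3p had a value of -1.50 ± 0.85 (edgeR adjusted p = 0.511), which was -0.66 without 24 h library 3 and -2.75 without 48 h library 3.

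The strand ratio of let-7d-3p between 48 h and 24 h was -2.10 ± 1.13 (SE, limma adjusted p = 0.494), and that of let-7e-3p -0.86 ± 0.63 (limma adjusted p = 0.624). limma called 0 of 9 strands and 0% of 127 pairs, and at an unadjusted p under 0.05 it gave 0 of 9 strands beside 11.8% of pairs. Of the 9 ratios 6 lay above 0, beside 56.7% of pairs, and none had groups apart, where 10.2% of pairs were higher and 9.45% lower throughout. These 9 hold let-7a-1-3p and let-7c-2-3p as separate names. Their summed share was higher in all 48 h than in all 24 h libraries (log2 change 1.12 ± 0.65, SE, limma adjusted p = 0.495).

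The passenger share differed widely between strands. A further let-7a hairpin, let-7a-2, gave a listed passenger, let-7a-2-3p, at 0 to 0.497 CPM, which was not among the 10 strands. The name let-7a-5p does not tell these let-7a hairpins apart. let-7c-5p comes from both let-7c-1 and let-7c-2, and let-7f-5p from both let-7f-1 and let-7f-2. The shares of let-7c-1-3p, the summed pair and the let-7f passengers are therefore not those of a single hairpin. Some guides differ by 1 base, such as let-7a-5p and let-7e-5p (U9G), so their counts can take in each other's reads wherever mismatches were tolerated. Averaged over 9 libraries, let-7d-3p made up 13.0% of both strands, let-7e-3p 5.91%, let-7f-2-3p 1.74%, the summed pair 0.314%, let-7i-3p 0.221% and let-7f-1-3p 0.196%. let-7c-1-3p, let-7b-3p and let-7g-3p made up 0.0103%, 0.0102% and 0.0059%. let-7f-2-3p exceeded the pair's share and let-7f-1-3p exceeded that of let-7c-1-3p in 9 of 9 libraries. let-7d-3p exceeded let-7e-3p in 6 of 9, let-7i-3p exceeded let-7f-1-3p in 5 of 9 and let-7c-1-3p exceeded let-7b-3p in 5 of 9. These orders therefore did not hold in every library, and the differences were not tested. At 24 h let-7d-3p exceeded let-7e-3p in every library (27.0%, 8.02% and 42.1% against 13.3%, 5.67% and 7.81%). It was the lower in untreated libraries 1 and 2 and in 48 h library 1. The let-7f-2 and let-7f-1 passengers, set against the same guide name, differed in every library, with 0.455% to 5.13% for the first and 0.0312% to 0.326% for the second.

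**Figure D5:**
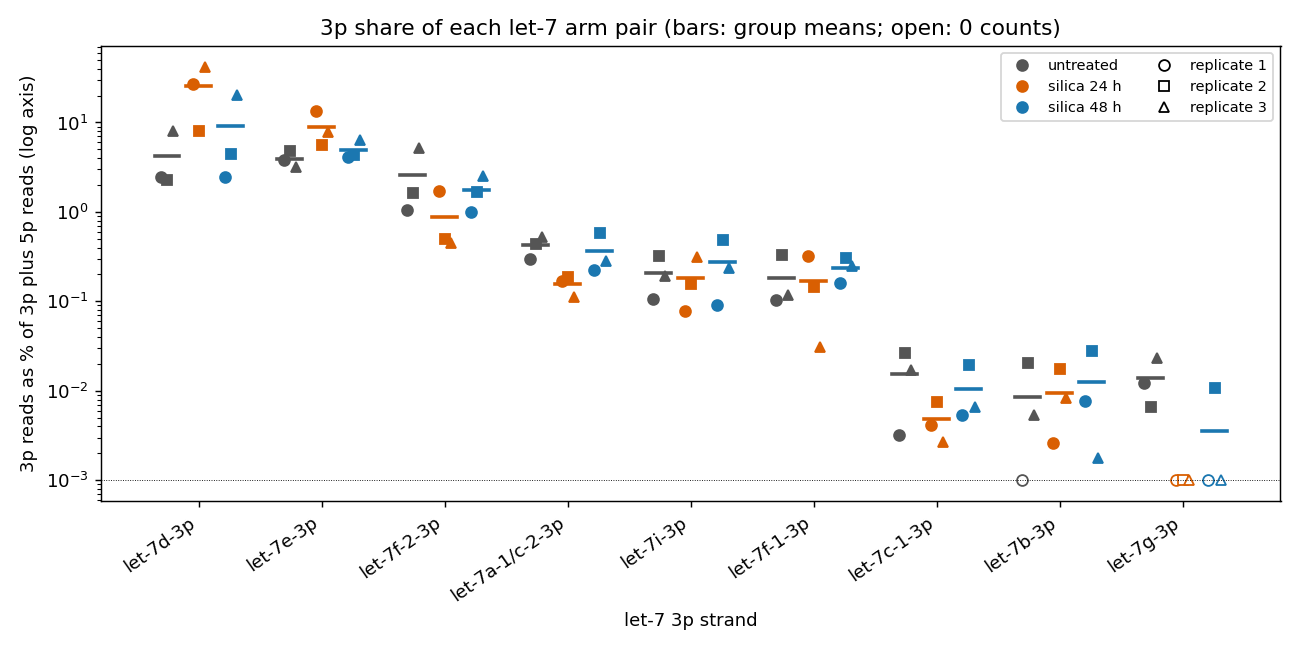
Share of the 3p strand among the reads of both strands for each let-7 3p strand and library, in percent on a log axis, with 0 counts drawn as open marks on the dotted line. let-7d-3p reaches 42.1% in 24 h library 3, let-7e-3p stays between 3.22% and 13.3%, and let-7b-3p, let-7c-1-3p and let-7g-3p stay under 0.03% in every library.

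For the most abundant strand, let-7d-3p, likeness of pattern was measured as the mean absolute difference of centred log2 CPM over the 9 libraries, where the median over all tested miRNAs was 1.49. The 5 most like were miR-34c-3p (0.398), miR-7035-3p (0.535), miR-1934-5p (0.544), miR-1938 (0.588) and miR-3470a (0.613). Of these, miR-34c-3p had 1 to 27 counts per library and miR-3470a, the best counted, 35 to 206, against 989 to 8158 for let-7d-3p. let-7e-3p stood at rank 53 of 452 with a difference of 1.00, and its own guide let-7d-5p at rank 217 with 1.46.

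The other let-7 strands and their cluster neighbours formed a list of 23 miRNAs, of which 22 were tested. At 24 h 12 lay above 0 and 10 below with a median log2 fold change of 0.13, at 48 h 19 above and 3 below with a median of 0.24, and none was called by edgeR in either. The largest values at 24 h were those of miR-99b-5p, processed from the same transcript as let-7e (0.90), and the guide let-7c-5p (0.88), and the smallest those of miR-99a-3p (-1.68) and miR-98-3p (-0.91), the let-7-related passenger that shares the UAUACAA seed.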

How the data were processed

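Small RNA of exosomes was sequenced in 9 libraries, 3 in each group named in the labels. Per the submitters' processing notes, Trim Galore, Bowtie and HTSeq were used with mm10, with no versions named. The treatment of reads with several matches is stated in neither labels nor headers. Per the file headers, each deposited table gives the count of reads per small RNA, and the authors' column headed TPM holds RPM and was not tested. Names absent from a table count as 0.

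Counts were tested with edgeR 4.0.16 (R 4.3.3; quasi-likelihood, TMM, filterByExpr with a minimum count of 10, 453 of 1101 mature miRNAs kept, 1 fit over 9 libraries). Strand ratios, log2 of (3p + 0.5)/(5p + 0.5), were tested with limma 3.58.1 over 127 pairs. Adjusted p-values are Benjamini-Hochberg over all tested, with a threshold of 0.05. The scripts were tested on simulated data. Sequences are RefSeq's (GRCm38.p6) and gene positions GENCODE's for GRCm38.

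All members were named whatever their values, besides the 5 miRNAs most like the most abundant strand and the 2 largest and 2 smallest of the neighbour list at 24 h. The members and lists were chosen with earlier results of these data known. Alternatives were other scalings, no filter, DESeq2 1.42.0, the replicate block, only the 2 groups compared, other pseudocounts, a count minimum for strand pairs and leaving out each library. Summing the identical pair, and leaving out untreated and 48 h library 2 together, were chosen after seeing the data.

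The labels number the libraries 1 to 3 in each group. Deviations from the group means correlated only in part between libraries of the same number. Between untreated and 24 h libraries r was 0.136, 0.439 and 0.149 for numbers 1 to 3. Between untreated and 48 h libraries it was 0.152, 0.636 and 0.315, and between 24 h and 48 h libraries -0.068, 0.289 and 0.253. The labels state no pairing, so the block was run only as an alternative, with a pairing inferred from these same counts. The match was not clear for numbers 1 and 3, since untreated library 1 correlated most with the 24 h and 48 h libraries numbered 3 (0.160 and 0.360). Libraries of a group were not duplicates, with a chi-square of 302 to 3837 per degree of freedom.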

Additional observations from a re-analysis of the deposited data

How the results depend on the processing

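Of 54 values of the 9 tested strands (level and strand ratio in 3 comparisons), 33 kept their direction under every alternative run. Of 933 recomputed values, 894 kept both direction and side of the threshold, 37 reversed and 2 passed the threshold, both of them let-7d-3p at 24 h (with the replicate block and without the filter). The causes were not tested.

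No other tested strand was called under any alternative run. The number of all miRNAs called was 0 in each comparison as reported; without the filter it was 7 at 24 h, 1 at 48 h and 16 between 48 h and 24 h, and with DESeq2 4, 1 and 6. At 24 h, 1 was called with upper-quartile factors and 1 with only the 2 groups compared. With the replicate block 3 were called at 24 h, none at 48 h and 3 between both silica times, and the block changed no other call of a strand. The numbers also did not clearly pair 48 h with 24 h, where r was -0.068, 0.289 and 0.253 and library 1 did not correlate best with its own number. With 1 library left out, 0 to 1 miRNA was called at 24 h (1 without 48 h library 1 or without 48 h library 2) and 0 to 1 between the times (1 without 48 h library 1), and 0 to 1 strand ratio in each comparison (1 without untreated library 2).

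With untreated and 48 h libraries 2 both left out, chosen after seeing the data, 1 strand ratio was called at 24 h and 1 at 48 h. Against untreated at 24 h let-7f-1-3p then reversed to 0.34 in level and 0.10 in ratio, and let-7i-3p to 0.13 in ratio. Between the times let-7a-1-3p reversed to -0.01006 in level, let-7b-3p to -0.90 and let-7i-3p to -0.0957 in ratio.

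Leaving out 1 library at a time also reversed log2 levels. At 24 h the ranges were -1.02 to 0.37 for let-7f-1-3p and -0.77 to 0.008218 for let-7i-3p. At 48 h they were -0.71 to 0.0497 for let-7c-1-3p, -0.01442 to 2.04 for let-7d-3p, -0.72 to 0.69 for let-7f-2-3p and -0.20 to 0.73 for let-7i-3p. Between the times they were -0.006246 to 1.19 for let-7a-1-3p, -0.83 to 0.16 for let-7b-3p and -1.59 to 4.61 for let-7c-2-3p. For strand ratios at 24 h they were -0.51 to 2.64 for let-7b-3p, -1.15 to 0.45 for let-7f-1-3p and -0.75 to 0.24 for let-7i-3p. For ratios at 48 h they were -0.48 to 2.67 for let-7b-3p, -1.26 to 0.25 for let-7c-1-3p, -2.70 to 1.09 for let-7c-2-3p, -0.11 to 1.55 for let-7d-3p, -0.85 to 0.32 for let-7f-2-3p and -0.35 to 0.86 for let-7i-3p. For ratios between the times they were -1.64 to 1.39 for let-7a-1-3p, -0.90 to 0.99 for let-7b-3p and -0.0957 to 1.11 for let-7i-3p. Depth limits let-7b-3p, let-7c-1-3p, let-7f-1-3p and let-7g-3p most, since 3 counts in a library equal up to 1.39 CPM.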
